A study of Mus musculus with 14 samples.

Results

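Inflammasomes are protein platforms that turn signs of infection or cell damage into the release of interleukin-1 cytokines. A sensor such as *Nlrp3* or *Aim2* recruits the adaptor *Pycard*, which brings in pro-caspase-1, and active caspase-1 cleaves the precursors of interleukin-1β and interleukin-18 and opens the pore protein gasdermin D. In the injured brain the pathway is best known from microglia and invading myeloid cells, where the amounts of the precursors and of the sensor are set by transcription and their activity by cleavage, which RNA levels do not show. The 10 genes followed here were chosen by name for their place in this pathway: the sensors *Nlrp3* and *Aim2*, the adaptor *Pycard*, the caspases *Casp1* and *Casp4*, the pore *Gsdmd*, the cytokines *Il1a*, *Il1b* and *Il18*, and the receptor antagonist *Il1rn*. All 10 were among the 46904 genes of the deposited table and among the 46102 genes tested.

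The study compared mice lacking the neuropeptide cortistatin with wild-type mice after transient occlusion of the middle cerebral artery (MCAO). The *Cort*-/- line carries a germline deletion on a C57BL/6J background, so the peptide is missing in every cell and at every age, and all mice were males of 12 weeks. The artery was closed for 20 min by a filament and the hemispheres were taken 48 h later, the ischemic one as MCAO and the opposite one of operated mice as the contralateral (CL) control. The RNA was that of a whole hemisphere, so infarct and spared tissue were pooled and no library came from an animal without surgery. Wild-type (*Cort*+/+) mice gave 3 libraries of each hemisphere, and *Cort*-/- mice gave 3 from CL and 5 from MCAO. The wild-type MCAO replicates are numbered 2, 3 and 4, and the study's methods say that replicates that did not group clearly were dropped from comparisons of large variability. Libraries held 25989673 to 43032291 reads assigned to genes. *Cort* had 64 to 139 reads in each *Cort*+/+ library and 0 to 4 in each *Cort*-/- library. Neuronal, astrocytic and oligodendrocyte markers were abundant in all 14 libraries.

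In the CL hemispheres the 10 genes covered a wide range of expression, given here as RPKM, the reads of a gene scaled to its length and to the size of the library. *Il18*, the precursor of a cytokine that drives interferon-gamma production, was by far the highest, at 11.9 to 14.5 RPKM over the 6 CL libraries. *Gsdmd* (1.04 to 1.50 RPKM) and the DNA sensor *Aim2* (1.21 to 1.61 RPKM) came next, and their ranges overlapped. *Casp1* (0.682 to 0.893 RPKM) and *Pycard* (0.557 to 0.747 RPKM) followed, and their ranges overlapped too. *Nlrp3*, *Il1a*, *Casp4* and *Il1b* lay between 0.0683 and 0.579 RPKM and could not be ordered beyond the spread between libraries. *Il1rn* was lowest, with 0 to 2 reads in each CL library. *Nlrp3*, *Casp4*, *Il1a*, *Il1b* and *Il1rn* therefore rest on few reads: *Casp4* had 7 to 16, *Il1b* 3 to 14 and *Il1a* 10 to 38 reads in a CL library.

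**Figure D1:**
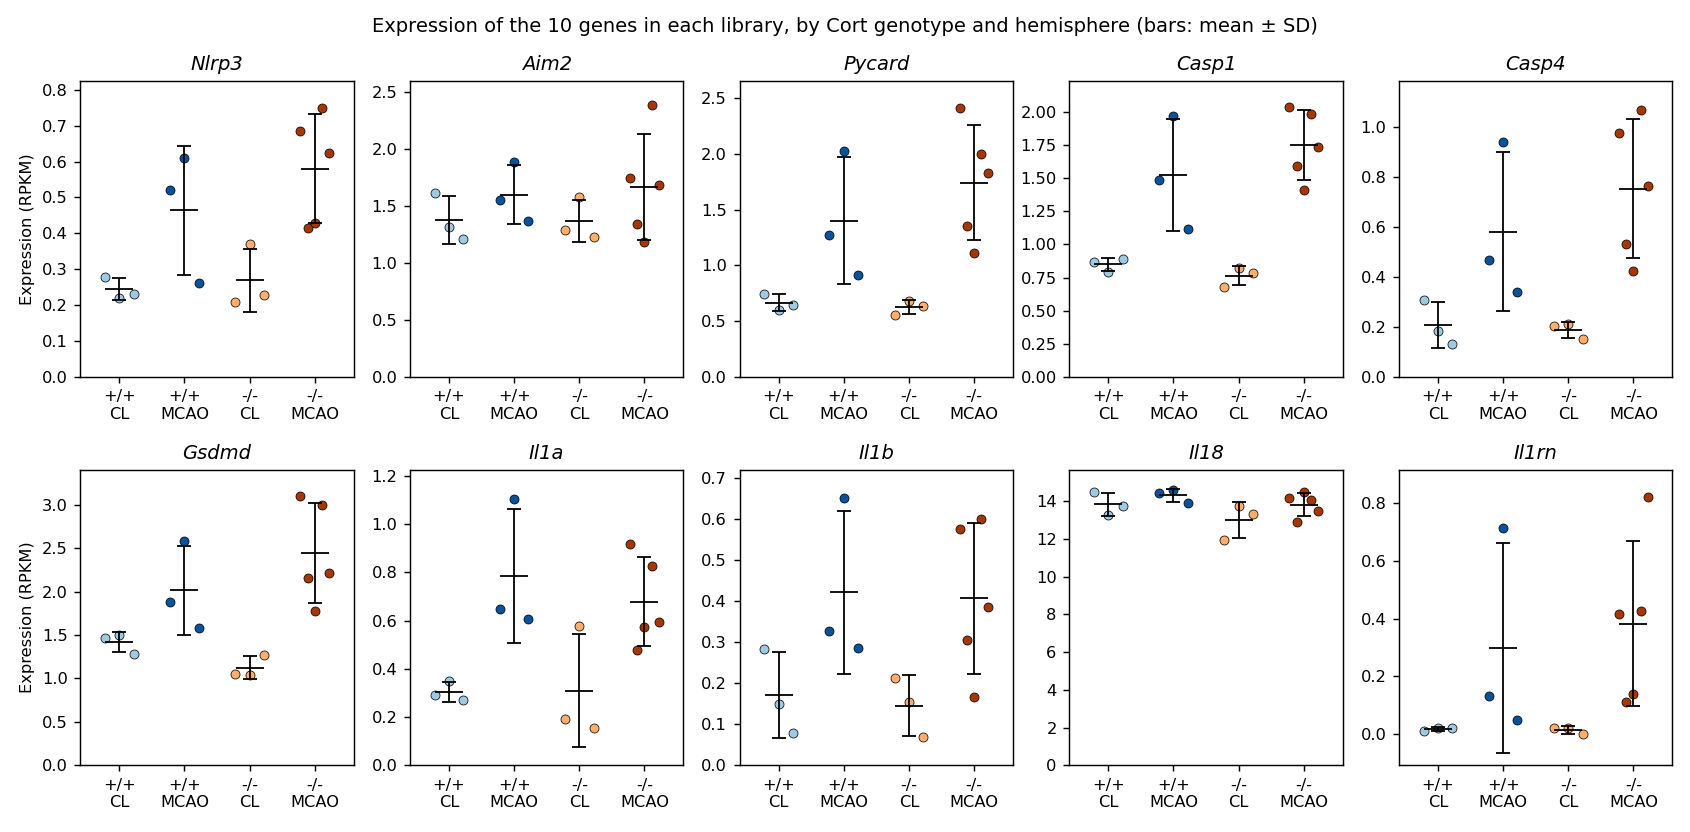
Expression in RPKM (vertical axes, each on its own scale) of the 10 genes in each of the 14 libraries, by *Cort* genotype (+/+ or -/-) and hemisphere; points are libraries, horizontal bars group means and error bars SD. *Pycard*, *Casp1*, *Casp4*, *Gsdmd* and *Il1rn* lay higher in every MCAO library than in every CL library, while *Il18* stayed between 11.9 and 14.6 RPKM throughout.

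To see which genes of the pathway responded to ischemia, MCAO was first compared with CL over both genotypes, each with equal weight. The adaptor, both caspases, the pore, *Nlrp3*, *Il1a* and *Il1rn* rose, while *Il1b*, *Aim2* and *Il18* did not pass the test. That is 7 of 10 genes called (limma on log2(RPKM + 0.1), Benjamini-Hochberg adjusted p under 0.05), all upward, where 3.43% of all genes tested were called. That share is lowered by the many genes of low expression. When only the 17476 genes averaging 0.5 RPKM or more were fitted, 2180 were called. Of the 10 genes, 6 remained in that fit and 4 were called. The median difference of the 10 genes was 0.95 on the log2 scale, against 0.00 for all genes. In 5 of the 10 genes every MCAO library lay above every CL library, a pattern that 1.72% of all genes showed. Expression here is an average over a hemisphere, and more cells of a type cannot be told apart from more RNA per cell.

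Among the sensors, *Nlrp3*, which reacts to potassium loss and cell damage, was expressed at 0.279, 0.221 and 0.231 RPKM in the CL and at 0.521, 0.610 and 0.263 RPKM in the MCAO hemispheres of *Cort*+/+ mice. Knockout CL libraries held 0.207, 0.371 and 0.228 RPKM and knockout MCAO libraries 0.414 to 0.750 RPKM with a median of 0.624 RPKM. MCAO replicate 4 of the *Cort*+/+ mice was the one MCAO library inside the range of the CL libraries. The difference over both genotypes was 0.77 (95% interval 0.35 to 1.19, limma adjusted p = 0.0496), the call nearest to the threshold among the 7. *Aim2*, which binds DNA in the cytosol, ranged from 1.21 to 1.61 RPKM in CL and from 1.19 to 2.39 RPKM in MCAO libraries, and 4 of 8 MCAO libraries lay above all CL libraries. Its difference was 0.22 (95% interval −0.09 to 0.53, limma adjusted p = 0.545).

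*Pycard*, the adaptor also called ASC, more than doubled in mean expression, from 0.644 to 1.61 RPKM over all libraries. In *Cort*+/+ mice it was at 0.747, 0.601 and 0.642 RPKM in CL and at 1.27, 2.02 and 0.910 RPKM in MCAO. Without cortistatin it was at 0.557, 0.681 and 0.634 RPKM in CL, and its MCAO values ran from 1.12 to 2.41 RPKM with a median of 1.83 RPKM. No MCAO library overlapped the CL libraries, and the difference was 1.11 (95% interval 0.70 to 1.51, limma adjusted p = 0.0065).

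*Casp1*, the protease that matures interleukin-1β and interleukin-18, had the smallest adjusted p of the 10 genes. Its CL values in *Cort*+/+ mice were 0.864, 0.793 and 0.893 RPKM and its MCAO values 1.49, 1.97 and 1.12 RPKM. The knockout CL values were 0.682, 0.825 and 0.787 RPKM, and MCAO values ran from 1.41 to 2.04 RPKM around a median of 1.74 RPKM. Its difference over both genotypes was 0.92 (95% interval 0.65 to 1.18, limma adjusted p = 0.00199). *Casp4*, the mouse caspase-11 that senses cytosolic lipopolysaccharide and cleaves gasdermin D, lies 1537 bases downstream of *Casp1* on chromosome 9 of GRCm39. It was at 0.307, 0.181 and 0.131 RPKM in CL and 0.465, 0.939 and 0.338 RPKM in MCAO hemispheres of *Cort*+/+ mice. In *Cort*-/- mice it was at 0.202, 0.210 and 0.151 RPKM in CL and at 0.422 to 1.07 RPKM, with a median of 0.763 RPKM, in MCAO. The groups did not overlap in either genotype. In *Cort*+/+ mice, however, MCAO replicate 4 had 15 reads (95% counting interval 0.189 to 0.557 RPKM) and CL replicate 1 had 16 (0.176 to 0.499 RPKM), so counting error could close that gap. The difference of 1.30 over both genotypes (95% interval 0.77 to 1.83, limma adjusted p = 0.0117) exceeded that of *Casp1*, though the intervals overlap. The caspases are related in sequence and the treatment of reads shared between genes is not stated, so their split is uncertain.

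*Gsdmd* encodes the protein whose N-terminal part forms membrane pores. Its CL values in *Cort*+/+ mice were 1.46, 1.50 and 1.29 RPKM and its MCAO values 1.88, 2.58 and 1.59 RPKM. For *Cort*-/- mice the CL values were 1.05, 1.04 and 1.28 RPKM, and the MCAO values 1.77 to 3.10 RPKM with a median of 2.21 RPKM. MCAO libraries were all above CL libraries, by 0.75 (95% interval 0.45 to 1.04, limma adjusted p = 0.01).

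The agonists of the interleukin-1 receptor moved by similar amounts but with unequal certainty. *Il1a*, an alarmin that is active without caspase-1, was at 0.293, 0.352 and 0.272 RPKM in CL and at 0.648, 1.10 and 0.605 RPKM in MCAO hemispheres of *Cort*+/+ mice. The CL values of *Cort*-/- mice were 0.191, 0.579 and 0.156 RPKM, so that replicate 2 lay within the MCAO values of 0.478 to 0.920 RPKM (median 0.595 RPKM). The difference over both genotypes was 1.07 (95% interval 0.56 to 1.57, limma adjusted p = 0.0255). *Il1b*, the main secreted agonist, had 4 to 14 reads in *Cort*+/+ CL libraries and 12, 16 and 36 in MCAO libraries. In *Cort*-/- mice it had 3 to 10 reads in CL and 6 to 34 reads in MCAO libraries. In RPKM its MCAO libraries exceeded all CL libraries in 7 of 8 cases, and MCAO replicate 3 of *Cort*-/- mice, with 6 reads, was the exception. Its difference was 0.98 (95% interval 0.37 to 1.58, limma adjusted p = 0.0833), and the fit on recovered reads (limma voom) gave an adjusted p of 0.0384.

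*Il18* did not follow the other cytokines. It was at 14.5, 13.3 and 13.7 RPKM in CL and at 14.4, 14.6 and 13.9 RPKM in MCAO hemispheres of *Cort*+/+ mice. Its knockout CL values were 11.9, 13.7 and 13.3 RPKM and its MCAO values 12.9 to 14.5 RPKM. With 395 to 636 reads per library it was the best measured of the 10 genes, and its difference over both genotypes was 0.07 (95% interval −0.02 to 0.16, limma adjusted p = 0.488). Its inhibitor *Il18bp*, which binds the mature cytokine, was at 2.55 RPKM in CL and 2.66 RPKM in MCAO on average (difference 0.07, 95% interval −0.16 to 0.30, limma adjusted p = 0.848).

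*Il1rn* encodes the antagonist that occupies the interleukin-1 receptor without signalling, and showed the widest spread between MCAO libraries. It had 1, 2 and 2 reads in CL and 13, 79 and 4 reads in MCAO libraries of *Cort*+/+ mice. In *Cort*-/- mice it had 2, 2 and 0 reads in CL and 49, 13, 10, 48 and 85 reads in MCAO libraries. Summed over libraries and divided by depth, MCAO exceeded CL 19.3 times in *Cort*+/+ mice (95% counting interval 7.98 to 60.7) and 26.5 times in *Cort*-/- mice (10.2 to 98.2). Of the 96 MCAO reads of *Cort*+/+ mice 79 came from replicate 3, and without that library the ratio was 5.50 (1.95 to 19.1). In *Cort*-/- mice it was 17.9 to 35.4 with any 1 library left out. These intervals are exact and cover counting error only. On the fitted scale, which compresses such low values, the difference over both genotypes was 1.62 (95% interval 0.76 to 2.49, limma adjusted p = 0.0438). Every MCAO library was above every CL library, but *Cort*+/+ MCAO replicate 4, at 0.0478 RPKM, stayed within a few reads of them.

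With any 1 of the 14 libraries left out, *Pycard*, *Casp1*, *Casp4* and *Gsdmd* passed each time, *Il1a* in 10, *Nlrp3* in 4 and *Il1rn* in 3 of the 14 fits. These fits called 941 to 1913 of all genes, against 1579 with all libraries. With a pseudocount of 1 RPKM in place of 0.1, *Nlrp3* and *Il1rn* no longer passed (limma adjusted p = 0.0669 and 0.153).

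**Figure D2:**
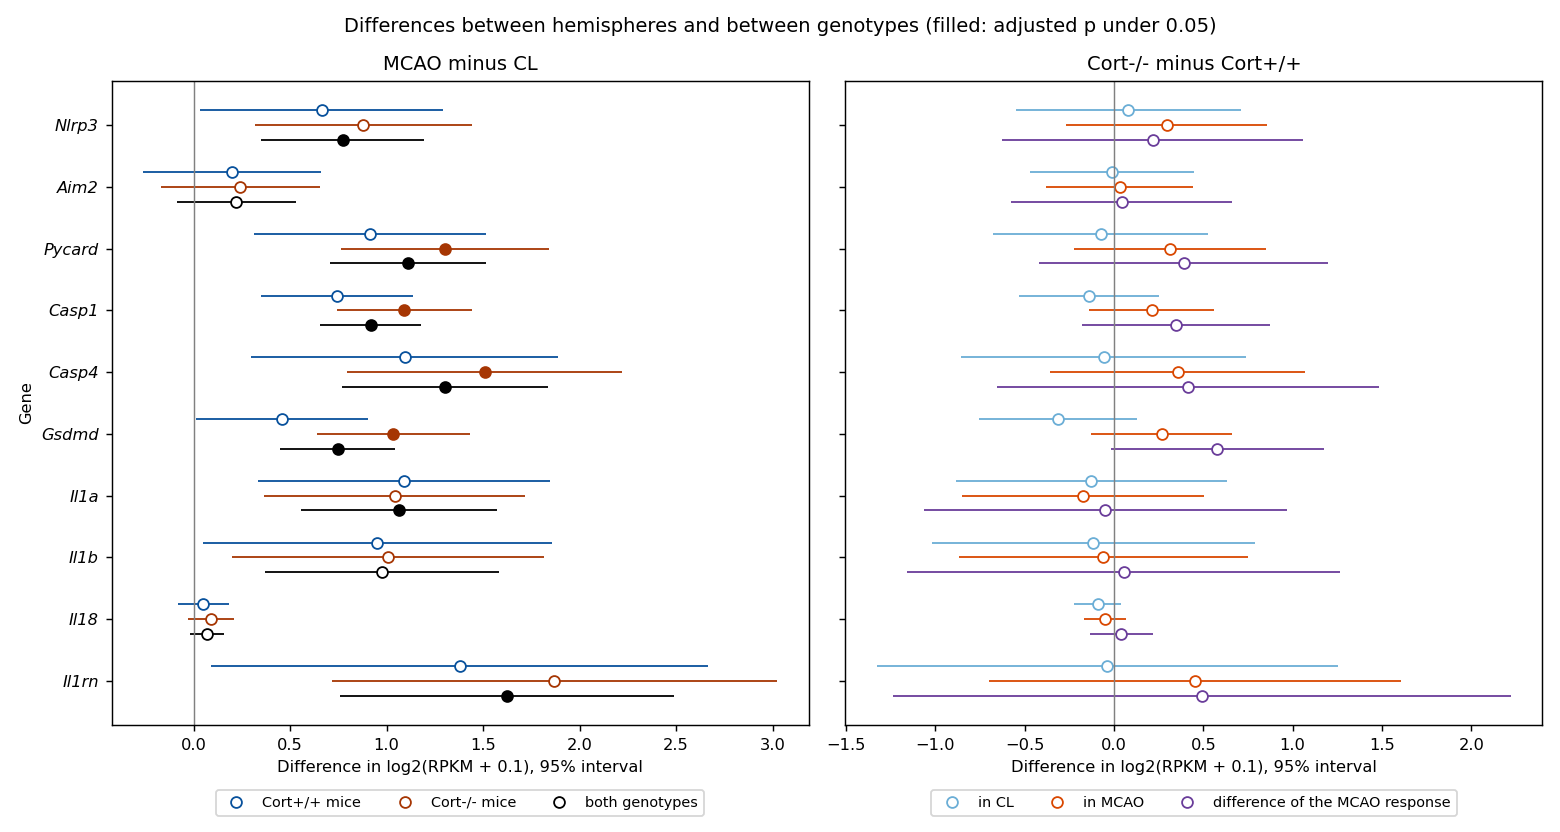
Differences in log2(RPKM + 0.1) (horizontal axes) with 95% intervals for the 10 genes, MCAO minus CL on the left and *Cort*-/- minus *Cort*+/+ on the right, the right panel also holding the difference of the MCAO response between genotypes; filled points passed an adjusted p of 0.05. Filled points are 7 over both genotypes and 4 in *Cort*-/- mice, and none appears in the right panel.

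Taken by genotype, MCAO and CL of *Cort*-/- mice differed for 4 genes, all upward: *Pycard*, *Casp1*, *Casp4* and *Gsdmd*. The differences were 1.30 for *Pycard* (limma adjusted p = 0.0231), 1.09 for *Casp1* (0.00904), 1.51 for *Casp4* (0.0392) and 1.04 for *Gsdmd* (0.0174). Of all genes, 1.72% were called in this comparison. When only the 17476 genes averaging 0.5 RPKM or more were fitted, 1290 were called. Of the 10 genes, 6 remained in that fit and 3 were called. In *Cort*-/- mice 6 of the 10 genes had every MCAO library above every CL library, as had 4.85% of all genes. The calls depended on single libraries, since none of the 10 genes passed without CL replicate 1 (*Casp1* adjusted p = 0.0521), and only *Casp1* passed without CL replicate 3. Calls among all genes fell as well, from 792 with all libraries to 133 without CL replicate 1 and 149 without CL replicate 3.

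In *Cort*+/+ mice none of the 10 genes passed the adjusted threshold by limma or by voom on the recovered reads, and 0.0108% of all genes did by limma. That share is 5 genes, and the study, with its own count test, reported many more for this comparison. All 10 differences were positive, with a median of 0.83, against 0.00 for all genes. Of the 10 genes, 8 had an unadjusted limma p under 0.05, as had 3626 of all 46102 genes. In 7 genes every MCAO library lay above every CL library, as in 5.73% of all genes. For *Casp4* and *Il1b* that rests on few reads: MCAO replicate 4 had 15 and 12 reads, and CL replicate 1 had 16 and 14. The differences were 0.91 for *Pycard* (95% interval 0.31 to 1.52), 0.74 for *Casp1* (0.35 to 1.13), 1.09 for *Casp4* (0.30 to 1.89) and 0.46 for *Gsdmd* (0.01 to 0.90). Without MCAO replicate 4, which was the lowest MCAO library for 6 of the 10 genes, *Casp1* passed (adjusted p = 0.0474). Leaving that library out also raised the calls among all genes from 5 to 160.

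The question of the study was whether loss of cortistatin alters the response, and for these genes no difference between genotypes passed. In MCAO hemispheres none of the 10 genes was called between *Cort*-/- and *Cort*+/+ mice, none had an unadjusted limma p under 0.05, and 0.0174% of all genes were called. The values were higher in *Cort*-/- mice by 0.31 for *Pycard* (95% interval −0.23 to 0.85), 0.21 for *Casp1* (−0.14 to 0.56), 0.36 for *Casp4* (−0.36 to 1.07) and 0.27 for *Gsdmd* (−0.13 to 0.66). They were lower by 0.18 for *Il1a* (95% interval of the difference −0.85 to 0.50), by 0.06 for *Il1b* (−0.87 to 0.75) and by 0.05 for *Il18* (−0.17 to 0.07). The remaining differences were 0.45 for *Il1rn* (95% interval −0.70 to 1.61), 0.30 for *Nlrp3* (−0.27 to 0.86) and 0.03 for *Aim2* (−0.38 to 0.44). Thus a 2-fold rise in *Cort*-/- mice lies within the interval of *Casp4*, and that of *Il1rn* was the widest of the 10. The interval of *Il18* was much narrower. In CL hemispheres none of the 10 genes was called either, where 0.0152% of all genes were. None had an unadjusted limma p under 0.05. *Gsdmd* was the one gene whose groups did not overlap there (every *Cort*-/- library was lower, as for 2.35% of all genes), at 1.12 ± 0.132 RPKM in *Cort*-/- and 1.42 ± 0.114 RPKM in *Cort*+/+ mice (SD, n = 3 each), with a difference of −0.31 (95% interval −0.76 to 0.13). The nearest libraries, replicate 3 of each genotype, were at 1.275 and 1.286 RPKM. Their 95% counting intervals, 1.00 to 1.60 and 1.03 to 1.59 RPKM, overlapped.

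The difference of the MCAO response between genotypes, tested as an interaction in the same model, was called for none of the 10 genes and for 0.00217% of all genes. It was positive for 9 of 10 genes, with a median of 0.28, against −0.01 for all genes. But its sign turned for 6 of the 10 (*Nlrp3*, *Aim2*, *Il1a*, *Il1b*, *Il18* and *Il1rn*) when 1 library was left out. *Gsdmd* had the smallest unadjusted p (0.056), with a difference of 0.58 (95% interval −0.02 to 1.17). So *Gsdmd* passed in *Cort*-/- and not in *Cort*+/+ mice, but the responses were not shown to differ. The same holds for *Pycard* (0.39, 95% interval −0.42 to 1.20), *Casp1* (0.35, −0.18 to 0.87) and *Casp4* (0.41, −0.65 to 1.48). Limma voom on the recovered reads also called none of the 10 genes in these 3 comparisons.

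The same MCAO libraries were often the highest or the lowest. Of the 9 genes other than *Il18*, *Cort*-/- MCAO replicate 4 was among the 3 highest libraries for 9, and replicate 1 of that group and *Cort*+/+ MCAO replicate 3 for 8 each. *Cort*+/+ MCAO replicate 4 and *Cort*-/- MCAO replicate 3 were among the 2 lowest for 7 genes each. High and low libraries thus occurred in both genotypes. *Cort*-/- MCAO replicate 3 also had the lowest depth of all libraries, 25989673 reads, and *Cort*+/+ MCAO replicate 4 the next lowest, 31206541. The 3 libraries most often highest had 40174121 to 41806749 reads. The deepest library, *Cort*-/- MCAO replicate 2 with 43032291 reads, was among the 2 lowest for 4 genes. The part of depth and of lesion size in this order was not tested.

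**Figure D3:**
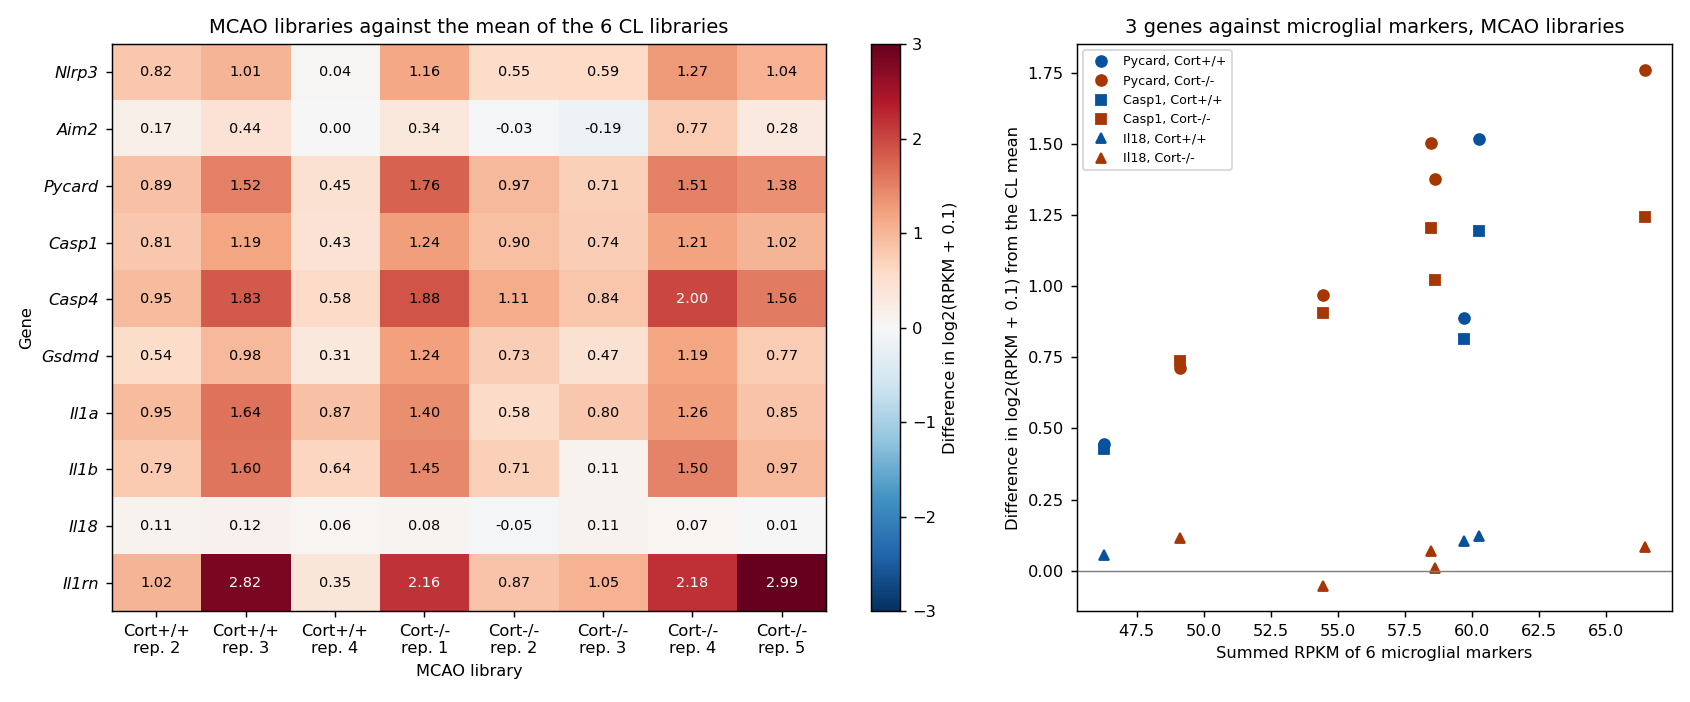
Left, the difference in log2(RPKM + 0.1) of each MCAO library (columns) from the mean of the 6 CL libraries for each gene (rows), with the value printed in the cell and a color scale from −3 to 3. Right, the same difference for *Pycard*, *Casp1* and *Il18* (vertical axis) against the summed RPKM of 6 microglial markers (horizontal axis) in the 8 MCAO libraries. *Pycard* and *Casp1* increased with the marker sum (Pearson r = 0.89 and 0.87, and 0.72 and 0.66 without the 2 libraries farthest from the median expression of the gene) and *Il18* did not (r = 0.12). For r the marker sum was taken as log2 after adding 0.1 RPKM.

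Over the 8 MCAO libraries, which share the ischemic hemisphere and differ in depth and genotype, Pearson r between pairs of those 9 genes ran from 0.61 to 0.97 with a median of 0.83 over 36 pairs. Pairs with *Il18* had a median r of 0.12. *Pycard* and *Casp1* had r = 0.97, *Pycard* and *Casp4* 0.97, *Casp1* and *Gsdmd* 0.95, and *Il1a* and *Il1b* 0.83. The genes most like *Pycard* were the class I genes *H2-K1* (r = 0.996, and 0.992 without the 2 libraries farthest from the median), *H2-D1* (0.993 and 0.987) and the galectin gene *Lgals9* (0.992 and 0.992). Those most like *Casp1* were *Pik3ap1* (0.996 and 0.989), *Ms4a6c* (0.994 and 0.994) and the chemokine gene *Cxcl16* (0.994 and 0.991). *Gsdmd* was closest to *Ppp1r18* (0.995 and 0.989), *Pla2g4a* (0.992 and 0.992) and the receptor gene *Il4ra* (0.989 and 0.994). *Aim2* was closest to *Pttg1ip* (0.986), *Taf5l* (0.981) and *Gm20458* (0.972), *Il1a* to *Mir6946* (0.947), *Commd10* (0.937) and *Ppp1r15a* (0.935). The nearest genes of *Il18* were *Triqk* (0.956), *Gm17066* (0.943) and *Gm26347* (0.938), and without 2 libraries these fell to 0.726, 0.845 and 0.599. These are the 3 highest of at least 15062 values of r over 8 libraries for each member, and the highest of so many would be large in any case.

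Markers of cell types moved along with these genes. The summed expression of 6 microglial markers was 34.1 to 41.5 RPKM in CL and 46.3 to 66.5 RPKM in MCAO libraries, and 4 of the 6 rose over both genotypes, a comparison in which 3.43% of all genes were called (*Cx3cr1*, *Tmem119*, *Gpr34* and *Sall1*). Microglia are the resident macrophages of the brain and a known source of several of the 10 genes. The sum of 7 monocyte and macrophage markers was 2.32 to 4.43 RPKM in CL and 2.98 to 11.0 RPKM in MCAO libraries, with 1 of 7 called. Over the 8 MCAO libraries this sum had r = 0.97 with *Pycard*, 0.98 with *Casp4* and 0.96 with *Gsdmd*. For r, sums and genes were taken as log2 after adding 0.1 RPKM. The astrocyte sum had r = 0.95, 0.93 and 0.93 with the same genes, so a high r was not particular to myeloid markers. The sum of 10 neutrophil markers was 2.47 to 9.81 RPKM in CL and 2.46 to 16.0 RPKM in MCAO libraries, with none called. Of these markers *Ly6g* and *Elane* had no more than 3 reads in every library, while *S100a8* had 13 to 106, *S100a9* 15 to 180 and *Retnlg* 2 to 41 reads. Of 5 astrocyte markers 3 rose, with sums of 232 to 349 RPKM in CL and 327 to 573 RPKM in MCAO. Sums of 6 neuronal markers were 1732 to 2124 RPKM in CL and 1541 to 1797 RPKM in MCAO libraries. Endothelial markers summed to 25.1 to 34.5 RPKM in CL and 34.9 to 49.1 RPKM in MCAO libraries, and 2 of 5 rose. None of the markers of border macrophages, T cells, oligodendrocytes, red blood cells or choroid plexus was called. The part of any of these cell types in the change of the 10 genes was not tested.

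The balance between agonists and antagonists was followed as a ratio within each library. The log2 ratio of *Il1rn* to *Il1b* (0.1 RPKM added to each) was −1.06 ± 0.309 in CL and −0.20 ± 0.690 in MCAO of *Cort*-/- mice (SD, n = 3 and 5, exact two-sided permutation p = 0.0714, adjusted over 9 tests 0.643), and 4 of 5 MCAO libraries lay above all CL libraries. In *Cort*+/+ mice it was −1.14 ± 0.618 in CL and −0.71 ± 0.765 in MCAO (n = 3 each, exact permutation p = 0.5, where 0.1 is the smallest p possible). Between genotypes in MCAO it differed by 0.52 (exact permutation p = 0.429, n = 5 and 3). In CL libraries *Il1rn* was at 0 to 0.0222 RPKM, below the 0.1 RPKM added. The CL ratio therefore followed mainly *Il1b* and the size of that constant. The change in *Cort*-/- mice with another constant is given at the end. The ratio of *Il1b* to *Il1a* moved by −0.14 in *Cort*+/+ and by −0.04 in *Cort*-/- mice (exact permutation p = 0.9 and 0.964). The ratio of *Il18bp* to *Il18* moved by 0.01 and −0.01 (exact permutation p = 0.9 and 0.75). None of the 9 tests passed after adjustment.

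Among 47 further genes of the pathway, 11 rose over both genotypes and none fell, where 3.43% of all genes were called. Of the 17476 genes averaging 0.5 RPKM or more, 2180 were called when fitted alone. The median difference of the 47 genes was 0.12. Of 16 sensors and regulators, 6 rose. The flagellin and secretion system sensors *Naip2*, *Naip5* and *Naip6* rose by 1.27, 0.74 and 0.71 (limma adjusted p = 0.0081, 0.0323 and 0.0157), from 0.330, 0.292 and 0.145 RPKM in CL on average. They are close paralogs in 1 cluster, so reads may have been split between them. The sensors *Nlrp1a* and *Nlrp1b* rose by 0.55 and 0.56 (limma adjusted p = 0.0245 and 0.0464) and had 5 to 26 and 18 to 67 reads per library. *P2rx7*, the ATP-gated channel upstream of *Nlrp3*, rose from 1.84 to 2.50 RPKM (0.40, limma adjusted p = 0.0294). *Nek7*, the *Nlrp3* partner, was at 9.29 RPKM in CL and 9.55 RPKM in MCAO (difference 0.04, 95% interval −0.05 to 0.13), and *Txnip* at 8.92 and 9.12 RPKM (0.03, −0.37 to 0.42).

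**Figure D4:**
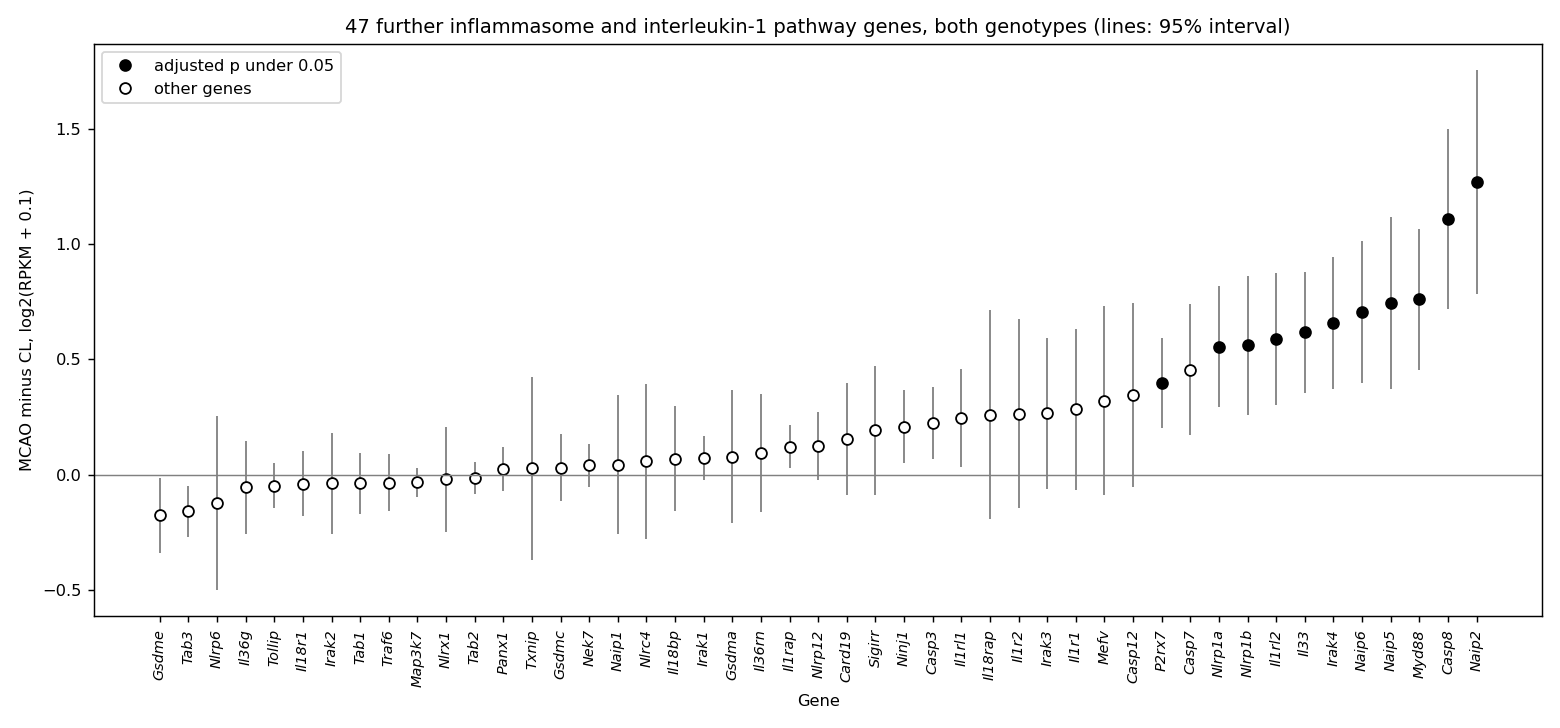
Difference between MCAO and CL in log2(RPKM + 0.1) over both genotypes (vertical axis) with 95% intervals for 47 further genes of the inflammasome and interleukin-1 pathway, in order of the difference; filled points passed an adjusted p of 0.05. The 11 filled points lie between 0.40 (*P2rx7*) and 1.27 (*Naip2*), and all are positive.

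Of 8 further caspases and pores, *Casp8*, which can also process interleukin-1β, rose from 0.740 to 1.77 RPKM (1.11, limma adjusted p = 0.00576), and 7 did not pass. Of 3 further ligands, the alarmin *Il33* rose from 16.8 to 26.4 RPKM (0.62, limma adjusted p = 0.014). Of 9 receptors and decoys, the interleukin-36 receptor gene *Il1rl2* rose from 0.243 to 0.422 RPKM (0.59, limma adjusted p = 0.0272). The interleukin-1 receptor *Il1r1* was at 1.17 RPKM in CL and 1.51 RPKM in MCAO (0.28, 95% interval −0.07 to 0.63), and its co-receptor *Il1rap* at 4.59 and 5.01 RPKM (0.12, 0.03 to 0.21, limma adjusted p = 0.186). Of 11 genes of receptor signalling, the adaptor *Myd88* rose from 2.53 to 4.53 RPKM (0.76, limma adjusted p = 0.0103) and the kinase *Irak4* from 0.344 to 0.617 RPKM (0.66, limma adjusted p = 0.0155). *Naip2*, *Casp8*, *Il33* and *Myd88* also rose in *Cort*-/- mice alone, by 1.40, 1.19, 0.76 and 0.84 (limma adjusted p = 0.0357, 0.0292, 0.0353 and 0.0432), where 1.72% of all genes were called. None of the 47 genes passed in *Cort*+/+ mice or between genotypes. In *Cort*+/+ mice 12 had an unadjusted limma p under 0.05, as had 3626 of all 46102 genes. Between genotypes 1 had (*Sigirr*, in CL), where 1802 of all genes did.

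The members lie on 6 chromosomes of GRCm39 (GENCODE M39), none of them chromosome 4, which holds *Cort*. *Nlrp3* spans chr11:59432394-59457782, *Aim2* chr1:173178445-173293930, *Gsdmd* chr15:75733974-75739257 and *Il18* chr9:50466081-50493633, all on the plus strand, as are *Casp1* (chr9:5298508-5307290), *Casp4* (chr9:5308828-5336783) and *Il1rn* (chr2:24226865-24241506). *Pycard* (chr7:127588558-127593039), *Il1a* (chr2:129140291-129152098) and *Il1b* (chr2:129206490-129213059) are on the minus strand. The strand setting of the authors' counting is not stated. Exons of genes on the opposite strand overlap those of *Pycard* (485 bases, *Gm45205*), *Il1a* (477 bases, *Gm14023*), *Gsdmd* (283 bases, *Gm62577*), *Casp1* (110 bases, *Gm67740*) and *Il1b* (95 bases, *Il1bos*). *Gm45205*, *Gm14023* and *Il1bos* had at most 25 reads in any library. *Gm62577* and *Gm67740*, which overlap *Gsdmd* and *Casp1*, had no values here, so their reads could not be looked at. *Il1bos* had 0 to 11 reads, a number of the same order as that of *Il1b*.

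The promoters of genes that moved together were searched for motifs of factors that act on myeloid and inflammatory genes, over 250 bases before the start of the canonical transcript and on both strands. The NF-kappaB motif occurred in 7.62% of 21751 promoters of protein-coding genes and, of the 10 genes, in that of *Casp4*. The AP-1 motif (TGANTCA) occurred in 6.17% and in that of *Il1rn*, and the PU.1 motif (ACTTCCTC or its reverse complement) in 2.08% and in that of *Pycard*. The interferon-stimulated response element (3.32%) and the STAT-binding GAS motif (TTCNNNGAA, 7.70%) were in none of the 10 windows searched. For *Aim2*, *Il18* and *Nlrp3* the window ended 104475, 10593 and 1118 bases inside the annotated gene. Starts of other transcripts further upstream were not searched. The 3 promoters with a match are shown because these genes rose; they are read 5′ to 3′ on the gene's strand, with matches in capitals.
Casp4, chr9:5308593-5308842, plus strand: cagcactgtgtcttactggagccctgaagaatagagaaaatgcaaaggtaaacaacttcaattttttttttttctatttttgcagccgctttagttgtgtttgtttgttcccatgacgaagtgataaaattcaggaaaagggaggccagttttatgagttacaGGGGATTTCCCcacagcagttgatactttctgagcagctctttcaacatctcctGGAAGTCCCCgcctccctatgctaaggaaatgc
Il1rn, chr2:24226615-24226864, plus strand: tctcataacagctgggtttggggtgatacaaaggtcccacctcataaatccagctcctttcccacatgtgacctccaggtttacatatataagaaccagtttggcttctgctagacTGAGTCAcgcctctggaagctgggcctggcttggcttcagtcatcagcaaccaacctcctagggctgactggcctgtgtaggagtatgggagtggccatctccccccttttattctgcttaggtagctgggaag
Pycard, chr7:127593040-127593289, minus strand: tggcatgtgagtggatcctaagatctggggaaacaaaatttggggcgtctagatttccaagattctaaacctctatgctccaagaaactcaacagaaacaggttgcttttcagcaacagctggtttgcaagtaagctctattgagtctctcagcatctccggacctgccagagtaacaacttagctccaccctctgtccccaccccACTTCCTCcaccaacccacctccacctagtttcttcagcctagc
In *Casp4* overlapping matches lie 87 to 77 and a further one 33 to 24 bases before the start, and the last 15 bases shown belong to other transcripts of the gene. The match in *Il1rn* lies 134 to 128 and that in *Pycard* 44 to 37 bases before the start. A match describes the letters of the sequence and is no evidence of binding, and *Casp1* and *Gsdmd*, which rose as well, held none of these motifs in this window.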

How the data were processed

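Poly(A) RNA of CL and MCAO hemispheres was sequenced by the authors from stranded libraries, aligned to GRCm39 and counted on GENCODE genes with reanalyzerGSE, and the values were deposited as RPKM for each of the 14 libraries, with no pooling of replicates. The strand setting of the counting, the gene lengths and the handling of shared reads are not given in the sources used here. Whole reads were recovered from the RPKM steps for 100% of 495656 values above 0 (tolerance 1e-05 reads), which gave the depth of each library. No 2 replicates agreed within counting noise.

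The filter of the study, a value above 0 in 2 or more libraries, was applied. The study used a count test, and because RPKM were deposited here, log2(RPKM + 0.1) was fitted with limma (1 model of 4 groups, moderated variances with trend, Benjamini-Hochberg adjustment over 46102 genes) and 6 contrasts were read out. Ratios were compared by exact two-sided permutation tests. Nothing says that the libraries of a group came from separate litters or days, so p-values measure the spread between these samples, which may be partly technical. Positions, promoters and overlaps come from GENCODE M39 on GRCm39. The members, the pathway and marker lists and the tests were chosen with earlier results of these data known. Named genes are the 10 members, pathway genes that passed in any comparison or are needed to describe a member (mean of at least 1 RPKM), and for members of at least 0.5 RPKM on average the 3 genes of highest r. One microglial marker is not reported here and stayed out of the marker sums. Steps were tested on simulated data. Alternatives covered pseudocount, filter, scaling, weights, replicate numbers, choice of libraries and limma voom on recovered reads. Voom with a filter of 0.5 RPKM and the *Il1rn* read ratio without each library were added after seeing the data. Tools were limma 3.58.1 in R 4.3.3, and pandas 2.3.3, scipy 1.17.1, numpy 2.4.6 and matplotlib 3.10.9 in Python 3.11.15.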

Additional observations from a re-analysis of the deposited data

Results flagged for a closer look

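A library far from the rest of its group was looked for in the 5 *Cort*-/- MCAO libraries, the one group above 3, over 13 sets of values (10 genes and 3 ratios). Chance gives such a value in about 1 in 20 sets. The log2 ratio of *Il1b* to *Il1a* was −1.34 in *Cort*-/- MCAO replicate 3, below −0.59 to −0.40 in the other 4 libraries of that group. *Il1b* had 6 reads in that library, the fewest of any MCAO library, with a 95% exact Poisson interval of 2.20 to 13.1 reads that covers counting error only. The log2 ratio of *Il18bp* to *Il18* was −1.96 in *Cort*-/- MCAO replicate 5, above −2.49 to −2.45 in the other 4 libraries. *Il18* was at 13.5 RPKM in that library, within the range of its group.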

How the results depend on the processing

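Over both genotypes the 10 genes kept their upward direction in every setting run. The count of 7 called became 4 with a filter of 0.5 RPKM on the mean, by limma and by voom, where 6 of the 10 genes remained to be tested, and 4 to 8 when 1 library was left out. Of the 17476 genes that passed this filter, limma called 2180 and voom 2316. Leaving out 1 library, 941 to 1913 of all genes were called, against 1579 with all libraries. In *Cort*-/- mice the count of 4 became 0 to 5 when 1 library was left out: 0 without CL replicate 1, 1 without CL replicate 3, and 2 without CL replicate 2 or MCAO replicates 1, 4 or 5. Those fits called 133 to 1191 of all genes, against 792 with all libraries. In *Cort*+/+ mice the count was 0 to 1, with 1 called without MCAO replicate 4, and 3 to 160 of all genes were called with 1 library left out. Between genotypes and for the difference of responses the count was 0 in every setting, and no setting called more than 40 of all genes. For the 47 further pathway genes, the count of 11 over both genotypes became 6 with the filter and 7 by voom with the filter (26 genes tested), and 5 to 11 when 1 library was left out. Their count of 4 in *Cort*-/- mice became 1 with a pseudocount of 1 RPKM, 2 with only the groups compared, 9 by voom, and 0 to 6 when 1 library was left out. Of all genes, 543 were called with that pseudocount, 528 with only the groups compared and 1294 by voom. The causes of these shifts, other than the smaller number of genes tested, were not tested.

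The replicate numbers were not shown to pair the libraries: over genes of at least 1 RPKM, deviations of same-numbered CL and MCAO libraries of 1 genotype correlated between −0.24 and 0.32, above 0.1 in 1 of 5 pairs. A block for the replicate number left 0 of the 10 genes called in *Cort*-/- mice and 1 (*Casp1*, limma adjusted p = 0.0489) over both genotypes, and 0 of the pathway genes in both. The loss was not particular to these genes. With the block, 0 of all 46102 genes were called in *Cort*-/- mice and 238 over both genotypes, against 792 and 1579 without it.

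Between genotypes, leaving out 1 library turned the sign for 4 of the 10 genes in MCAO and for 7 in CL. The difference between genotypes in MCAO of *Il18* was 0.0068 after rescaling to TPM. Leaving out 1 library, that of *Il1a* ran from −0.32 to 0.068, that of *Il1b* from −0.25 to 0.23, that of *Aim2* from −0.10 to 0.15 and that of *Il1rn* from −0.07 to 1.17. The ratio of *Il1b* to *Il1a* moved by 0.038 in *Cort*+/+ and 0.11 in *Cort*-/- mice with a pseudocount of 0.01 RPKM, and from −0.34 to 0.17 and −0.42 to 0.34 when 1 library was left out. The ratio of *Il18bp* to *Il18* moved by −0.00028 in *Cort*+/+ mice with a pseudocount of 1 RPKM. Leaving out 1 library, its change ran from −0.050 to 0.11 in *Cort*+/+ and −0.11 to 0.13 in *Cort*-/- mice, and its difference between genotypes from −0.12 to 0.028. The change in the ratio of *Il1rn* to *Il1b* in *Cort*-/- mice kept its direction and was 2.42 with a pseudocount of 0.01 RPKM (exact permutation p = 0.0357).

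Depth limits *Il1rn*, *Il1b* and *Casp4*, which had 0 to 16 reads in a CL library.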
